A study of Mus musculus with 11 samples.

Results

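The miR-532, miR-500 and miR-362 cluster is a run of 5 microRNA hairpins on the mouse X chromosome, inside the chloride transporter gene Clcn5. Its products were followed here as 7 listed mature miRNAs, mmu-miR-532-5p, mmu-miR-532-3p, mmu-miR-500-3p, mmu-miR-501-3p, mmu-miR-362-5p, mmu-miR-362-3p and mmu-miR-188-5p (the mouse prefix mmu is left out from here on), out of 1978 mature miRNA names in the table. They were taken as the table rows that carry exactly these names, and all 7 had a row. Members were chosen by their place in the locus, with no threshold on a measured value given, but the locus was selected on measured values of these same libraries, and which values these were is not stated. Every p-value below therefore describes the fit over all miRNAs and is no independent support for the choice. Among the 10 products of these hairpins, the listed ones held ranks 1 to 6 and 8 by mean level. At rank 7 was miR-501-5p, left off the list, with 43 counts over all libraries, against 11 for miR-188-5p at rank 8. Another 3 products of the same hairpins (miR-188-3p, miR-500-5p and miR-501-5p) are given beside the 7.

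Small RNA was sequenced from sorted CD8+ T cells of mouse spleen. VM stands for virtual memory, a state in which a CD8+ T cell looks like a memory cell without having met foreign antigen, and TN stands for true naive, the state without that phenotype. The groups were VM cells of dirty mice (Dirty_VM, 3 libraries), TN cells of dirty mice (Dirty_TN, 3), VM cells of clean mice (Clean_VM, 3) and TN cells of clean mice (Clean_TN, 2, numbered 2 and 3). All groups were CD4- CD8+ CD49dlo GFP+ sorts called stamped, with CD44hi cells as VM and CD44lo cells as TN. The labels define neither dirty nor stamped, and give no strain, genotype, age or source of the GFP. They also do not say whether replicates came from separate animals. The p-values therefore set differences against the scatter among these libraries and reach no wider.

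Each library held between 2614396 and 16312004 estimated counts. The libraries fell into 5 shallow ones, with totals up to 4116012, and 6 deep ones, with totals of at least 9399645, and both kinds occurred in each group. Levels are CPM, the count divided by the library total and put on the usual per-million scale, with totals scaled by the trimmed mean of M values (TMM). The lymphocyte miRNAs miR-150-5p, miR-142a-3p, miR-142a-5p, miR-342-3p and miR-155-5p were all present, and their sum ran over 88359 to 103179 CPM in Dirty_VM and 75286 to 141972 in Dirty_TN, and over 85255 to 112904 in Clean_VM and 138365 to 146746 in Clean_TN. Of the lists of other cell types, 5 erythroid miRNAs summed to 122 to 200 CPM in Dirty_VM and 69.2 to 148 in Dirty_TN, and to 129 to 261 in Clean_VM and 59.9 to 76.8 in Clean_TN. Both of these lists separated Clean_VM from Clean_TN without overlap. Of the 545 single rows tested, 28.3% had Clean_VM libraries wholly above those of Clean_TN and 24.4% wholly below. The 4 stromal miRNAs summed to 75.6 to 109 CPM in Dirty_VM and 48.7 to 72 in Dirty_TN, and to 62.8 to 105 in Clean_VM and 39.8 to 49.3 in Clean_TN. The 5 epithelial miRNAs summed to 1756 to 2199 CPM in Dirty_VM and 1282 to 1780 in Dirty_TN, and to 1495 to 1862 in Clean_VM and 1232 to 1318 in Clean_TN. In clean mice these sums too did not overlap, so that the lymphocyte sum was lower and the erythroid, stromal and epithelial sums were higher in VM than in TN cells. Within the lymphocyte list miR-155-5p was higher in Clean_VM than in Clean_TN, with a log2 change of 0.95 (edgeR adjusted p = 0.0146). The stromal list did not move as one in that comparison. There miR-143-3p had a log2 change of 1.10 (edgeR adjusted p = 0.0146) and miR-214-3p 0.41. By contrast miR-145a-5p had -0.65 and miR-199a-3p -0.34, and only miR-143-3p passed. In the erythroid list miR-486a-5p and miR-486b-5p passed, at 1.88 and 1.91 (edgeR adjusted p = 0.00985 and 0.00617). There miR-144-5p had 1.86 (adjusted p = 0.3) and miR-451a 0.18 (0.849). In the epithelial list only miR-200a-3p passed, at 0.65 (edgeR adjusted p = 0.0394), and the others had 0.24 to 0.34. The 2 endothelial and platelet miRNAs summed to 29.6 to 53.0 CPM in Dirty_VM and 15.3 to 29.7 in Dirty_TN, and to 21.7 to 47.7 in Clean_VM and 18.4 to 19.3 in Clean_TN. The myeloid miR-223-3p was at 1.64 to 2.08 CPM in Dirty_VM and 0.257 to 1.54 in Dirty_TN, and at 0.268 to 3.12 in Clean_VM and 0.904 to 1.09 in Clean_TN. The endothelial and platelet sum was thus also higher without overlap in VM cells of clean mice, and the stromal and myeloid levels were in those of dirty mice. In dirty mice 16.9% of all rows lay wholly above and 13.6% wholly below in VM cells. No miRNA of these lists was at 0 in every library. In bulk libraries, fewer cells with a miRNA and less of it per cell cannot be told apart.

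A miRNA hairpin is cut into a duplex whose strands are the 5p and the 3p arm, and usually the strand that is loaded into an Argonaute protein accumulates while its partner is degraded. Target choice rests mainly on the seed, the bases near the 5′ end. Clcn5 encodes an endosomal chloride and proton exchanger, and its miRNAs are thought to be cut from the host transcript and may share its transcription. The host transcript itself is not measured by small RNA libraries.

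All 5 hairpins lie on the minus strand of chromosome X (GRCm38, which is mm10, GENCODE M21), within the Clcn5 gene at 7153810 to 7319358. None overlapped an exon in any of the 5 annotated Clcn5 transcripts, and each lay within an intron of 3 of them. In the direction of transcription mir-532 comes first, at 7248402 to 7248497, followed after 345 bases by mir-188 at 7247989 to 7248056. After a gap of 5942 bases comes mir-362 at 7241982 to 7242046, then after 630 bases mir-501 at 7241243 to 7241351, and after 3468 bases mir-500 at 7237683 to 7237774. The whole run spans 10815 bases, and these positions were the same in RefSeq. Mature sequences were found for 6 of the 7 listed members and for 3 of 3 other products in RefSeq's table (GRCm38.p6). They are shown 5′ to 3′ with the seed (bases 2 to 8) in capitals, because the seeds tie products of different hairpins together.
miR-501-3p: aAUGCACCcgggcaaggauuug
miR-500-3p: aAUGCACCugggcaaggguuca
miR-362-5p: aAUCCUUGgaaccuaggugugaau
miR-500-5p: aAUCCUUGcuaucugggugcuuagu
miR-501-5p: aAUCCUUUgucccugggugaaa
miR-188-5p: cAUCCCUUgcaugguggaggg
miR-532-3p: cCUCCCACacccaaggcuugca
miR-188-3p: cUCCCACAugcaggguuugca
miR-362-3p: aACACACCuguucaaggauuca
The listed member with no sequence in that table is miR-532-5p.

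miR-501-3p and miR-500-3p share the seed AUGCACC and were identical at 18 of 22 positions. Counted from 1 at the 5′ end of miR-500-3p, they differ by U9C, G18A, C21U and A22G. Among RefSeq's mouse miRNAs no further mature sequence carried that seed. miR-362-5p and miR-500-5p share the seed AUCCUUG, again with no other carrier. The seed of miR-362-3p is also that of miR-329-3p, and the seed of miR-188-5p that of miR-7061-3p, and both of those miRNAs were at 0 in every library. The seeds of miR-532-3p, miR-501-5p and miR-188-3p had no other carrier in that table.

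The hairpins differ in the arm that accumulated, which RefSeq's sequences of mir-501 and mir-362 show, with the more abundant arm in capitals. In mir-501 the capitals are miR-501-3p, and in mir-362 they are miR-362-5p.
mir-501: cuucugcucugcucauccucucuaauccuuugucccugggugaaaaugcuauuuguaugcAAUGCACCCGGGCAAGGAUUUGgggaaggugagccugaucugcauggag
mir-362: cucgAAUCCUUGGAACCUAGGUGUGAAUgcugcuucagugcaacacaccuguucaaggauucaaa
Over all libraries miR-501-3p had 7083 counts against 43 for miR-501-5p, and miR-500-3p had 425 against 3 for miR-500-5p, so both of these paralogous hairpins gave nearly all their counts from the 3p side. In mir-362 the arms were closer, with 915 counts of miR-362-5p and 478 of miR-362-3p. In mir-532 the 5p arm prevailed, with 57076 counts against 920 of miR-532-3p.

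The products spanned several orders of magnitude. miR-532-5p, reported to repress RUNX3 in human melanoma cells, was the most abundant, with a lowest, median and highest level of 603, 688 and 859 CPM over the 11 libraries, and stood at rank 80 of 1172 rows with any count. miR-501-3p, studied in mouse muscle progenitors, came next with 59.2, 78.3 and 131 CPM. In every one of the 11 libraries miR-532-5p was above miR-501-3p, by 6.08 to 11.3 times, and miR-501-3p was above miR-362-5p, by 5.7 to 14.5 times. These first steps of the order had ranges that did not overlap.

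Below them the order was fixed in part. miR-362-5p, reported to target the deubiquitinase CYLD in human cells, ran between 5.42 and 14.0 CPM, and miR-532-3p between 6.24 and 16.8 CPM, and miR-362-5p was the higher of these in 6 of 11 libraries. miR-362-3p ran between 1.5 and 10.7 CPM and miR-500-3p between 2.81 and 7.83 CPM, and miR-362-3p was the higher in 7 of 11 libraries. miR-532-3p was above miR-362-3p in 10 of 11 libraries, and over all 11 the ratio of their levels ran between 0.972 and 4.6. Both miR-362-5p and miR-532-3p were above miR-500-3p in 11 of 11 libraries. Within a library the order of miR-362-5p and miR-532-3p, and that of miR-362-3p and miR-500-3p, thus varied, and the ranges of neighbours overlapped.

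miR-188-5p, known in mouse bone marrow stromal cells for a role in the balance of bone and fat formation, was at the limit of detection. It had 0, 0 and 2 counts in Dirty_VM, 0, 0 and 0 in Dirty_TN, 2, 4 and 1 in Clean_VM, and 2 and 0 in Clean_TN. Where its count was 0, read as fewer than 3 counts, this allowed between 0.244 CPM (Dirty_TN replicate 3) and 1.23 CPM (Dirty_VM replicate 2). These bounds cover counting error only. miR-188-5p did not pass the filter on low counts, so 6 of the 7 members were tested, and no difference in it was detectable at this depth. miR-188-3p had no count in any library, miR-500-5p at most 1 count and miR-501-5p at most 9 counts per library, and none of these 3 was tested.

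**Figure D1:**
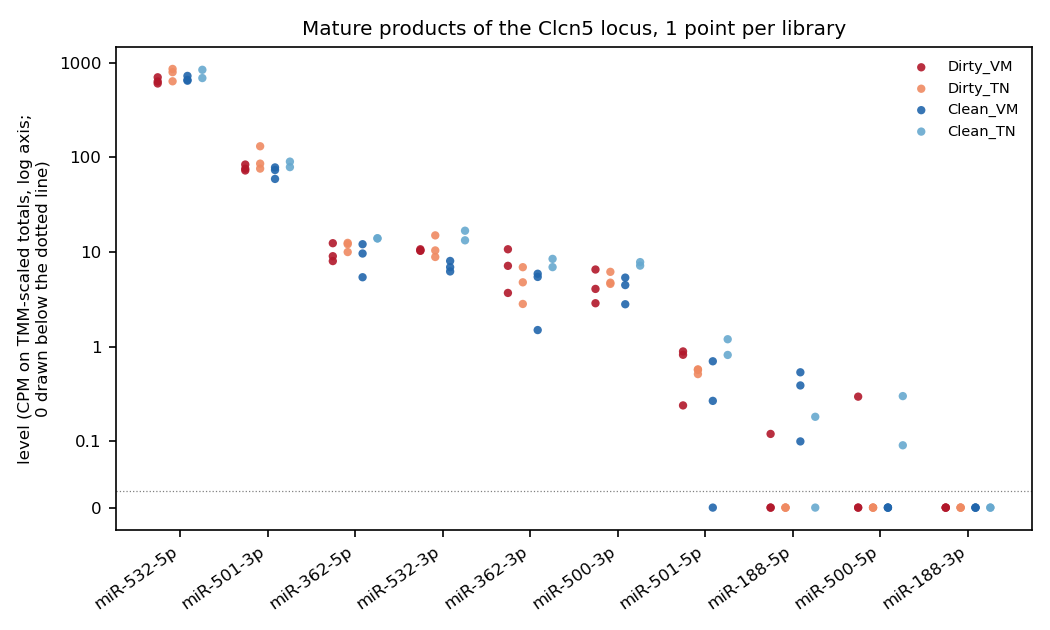
Level of each of the 10 mature products of the 5 Clcn5 hairpins, in CPM on a log axis, with 1 point per library coloured by group and zeros drawn below the dotted line. miR-532-5p lies at 603 to 859 CPM and miR-501-3p at 59.2 to 131 CPM, apart from a middle set that overlaps between 1.5 and 16.8 CPM and from 4 products near 0.

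Because miR-532-5p dominated, it set the sum of the locus. It made up 85.3% ± 2.08 (SD, n = 3) of the locus counts in Dirty_VM and 85.2% ± 2.96 (n = 3) in Dirty_TN, and 87.6% ± 0.577 (n = 3) in Clean_VM and 85.3% ± 2.83 (n = 2) in Clean_TN. miR-501-3p made up 10.3% ± 1.26 in Dirty_VM, 11% ± 2.93 in Dirty_TN, 9.11% ± 1.17 in Clean_VM and 9.54% ± 1.92 in Clean_TN. The sum of all 10 products was 756 ± 39.9 CPM in Dirty_VM and 894 ± 118 in Dirty_TN, and 771 ± 52.4 in Clean_VM and 894 ± 96.9 in Clean_TN. The means were lower in VM than in TN cells of both environments, while the ranges overlapped, at 722 to 800 against 758 to 970 CPM in dirty mice and 730 to 830 against 826 to 963 CPM in clean mice.

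The comparison of VM with TN cells asked whether these miRNAs separate the subsets. Only the minor arm miR-532-3p, studied in mouse heart cells for effects on mitochondrial fission, passed the test. In clean mice miR-532-3p was at 8.05, 6.24 and 6.92 CPM in Clean_VM, against 16.8 and 13.3 CPM in Clean_TN. These rest on 30, 64 and 69 counts in Clean_VM and on 184 and 44 in Clean_TN, and each Clean_VM library was below each Clean_TN library. The log2 change was -1.10 ± 0.295 (SE), or 0.467 times the TN level, with an adjusted p of 0.0225 by edgeR's quasi-likelihood test. The marker sums above separated the same libraries, and their part in this difference was not tested. In dirty mice miR-532-3p was at 10.4, 10.3 and 10.7 CPM in Dirty_VM, against 8.87, 10.4 and 15 CPM in Dirty_TN. The Dirty_VM libraries lay close together and inside the wide range of Dirty_TN, with a log2 change of -0.13 ± 0.268 (edgeR adjusted p = 0.815).

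Averaged over dirty and clean mice, miR-532-3p had a log2 change of -0.61 ± 0.2 (edgeR adjusted p = 0.0403). A difference of its VM minus TN change between dirty and clean mice was tested as an interaction, which gave 0.97 ± 0.4 (edgeR adjusted p = 0.24) and did not pass. In clean mice 1 of 6 tested members was called, where 17.4% of all 545 rows were called, 9.72% higher and 7.71% lower. In the average 1 of 6 was called as well, against 23.7% of all rows, 11.4% higher and 12.3% lower. A single call among 6 is near these shares. With the replicate number as a block, alone or within each environment, both calls were lost (edgeR adjusted p between 0.0601 and 0.092). The averaged call was lost without Clean_TN replicate 2, Clean_VM replicate 2, Dirty_TN replicate 2 or 3, or Dirty_VM replicate 1, 2 or 3 (edgeR adjusted p between 0.0502 and 0.169), and with no filter on low counts (0.099). The call in clean mice was lost without Clean_TN replicate 2 (adjusted p = 0.165) or 3 (0.057), or Clean_VM replicate 2 (0.0522). Over all alternatives the edgeR or DESeq2 adjusted p ran over 0.0121 to 0.169 on average and 0.00527 to 0.165 in clean mice.

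Within the shallow libraries miR-532-3p was at 8.05 CPM in Clean_VM and 13.3 in Clean_TN, a log2 difference of -0.72, and within the deep ones at 6.58 CPM in Clean_VM and 16.8 in Clean_TN, a difference of -1.35. In dirty mice the difference was -0.01 within the shallow and -0.15 within the deep libraries. Each class held 1 Clean_TN library, and as all Clean_VM libraries lay below both Clean_TN libraries, the direction in clean mice was the same for any split.

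miR-532-5p, the abundant arm of the same hairpin, did not pass the test. It was at 633, 701 and 603 CPM in Dirty_VM, against 794, 859 and 636 CPM in Dirty_TN. In clean mice it was at 725, 645 and 658 CPM in Clean_VM, against 688 and 841 CPM in Clean_TN. The libraries of the subsets overlapped in both environments. Its log2 change was -0.21 ± 0.133 on average (edgeR adjusted p = 0.285), with a 95% interval of -0.50 to 0.08, which holds both no change and a decrease down to the lower bound.

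miR-501-3p was at 75.9, 72.7 and 84.0 CPM in Dirty_VM, against 131, 76.1 and 85.9 CPM in Dirty_TN. In clean mice it was at 73.5, 59.2 and 78.3 CPM in Clean_VM, against 90.2 and 78.9 CPM in Clean_TN. The highest value of all 11 libraries was that of Dirty_TN replicate 1, while in clean mice the subsets met without overlapping, 78.3 CPM being the highest of Clean_VM and 78.9 the lowest of Clean_TN. Its averaged log2 change was -0.30 ± 0.167 (edgeR adjusted p = 0.221, 95% interval -0.66 to 0.06).

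Its paralog miR-500-3p was at 6.54, 2.88 and 4.08 CPM in Dirty_VM, against 4.75, 4.61 and 6.18 CPM in Dirty_TN. In clean mice it was at 5.37, 4.48 and 2.81 CPM in Clean_VM, against 7.19 and 7.83 CPM in Clean_TN. Both Clean_TN libraries were above every other library. Its averaged log2 change was -0.53 ± 0.274 (edgeR adjusted p = 0.19), and that in clean mice -0.85 ± 0.401 (adjusted p = 0.172). In 4 of 11 libraries the estimated counts of miR-500-3p and miR-501-3p both ended in 0.5 and in no library did only 1 of them, so part of their counts may be reads divided between these near-identical rows, and the small level of miR-500-3p is uncertain for that reason. miR-500-3p held 3.46% to 8.89% of the counts of this pair.

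The arms of mir-362 were low and scattered. miR-362-5p was at 8.03, 9.04 and 12.4 CPM in Dirty_VM against 12.5, 12.1 and 10 CPM in Dirty_TN, and at 12.1, 9.65 and 5.42 CPM in Clean_VM against 14.0 and 13.9 CPM in Clean_TN. Its averaged log2 change was -0.42 ± 0.231 (edgeR adjusted p = 0.214). miR-362-3p was at 10.7, 3.7 and 7.15 CPM in Dirty_VM against 2.83, 6.92 and 4.79 CPM in Dirty_TN, and at 5.9, 5.46 and 1.5 CPM in Clean_VM against 8.47 and 6.93 CPM in Clean_TN. Clean_VM replicate 3 had the lowest level of both arms. For miR-362-3p the log2 changes pointed apart, at 0.61 ± 0.516 in dirty and -0.88 ± 0.563 in clean mice, but the interaction of 1.49 ± 0.764 did not pass (edgeR adjusted p = 0.336).

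Taken as a list, all 6 tested members had averaged log2 changes below 0, with a median of -0.36, where 45.5% of all rows lay below 0 and the median was 0.092. In clean mice 6 of 6 were below 0 with a median of -0.74 against 0.082 over all rows, and 47% of all rows were below 0. There 5 of the 6, all but miR-532-5p, had Clean_VM libraries that lay wholly below those of Clean_TN, as did 24.4% of all rows, while 28.3% lay wholly above. In dirty mice 5 of 6 were below 0 with a median of -0.21 against 0.016, and in no member were the libraries of the subsets apart, against 13.6% of all rows lower and 16.9% higher without overlap. No member was called there by edgeR, against 12.1% of all rows, 6.24% higher and 5.87% lower. DESeq2 called 88 rows there and no member. No member had an unadjusted edgeR p under 0.05 there, against 136 of 545 rows. Since the members come from 1 locus and share the same libraries, they do not count as separate observations of the subsets.

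**Figure D2:**
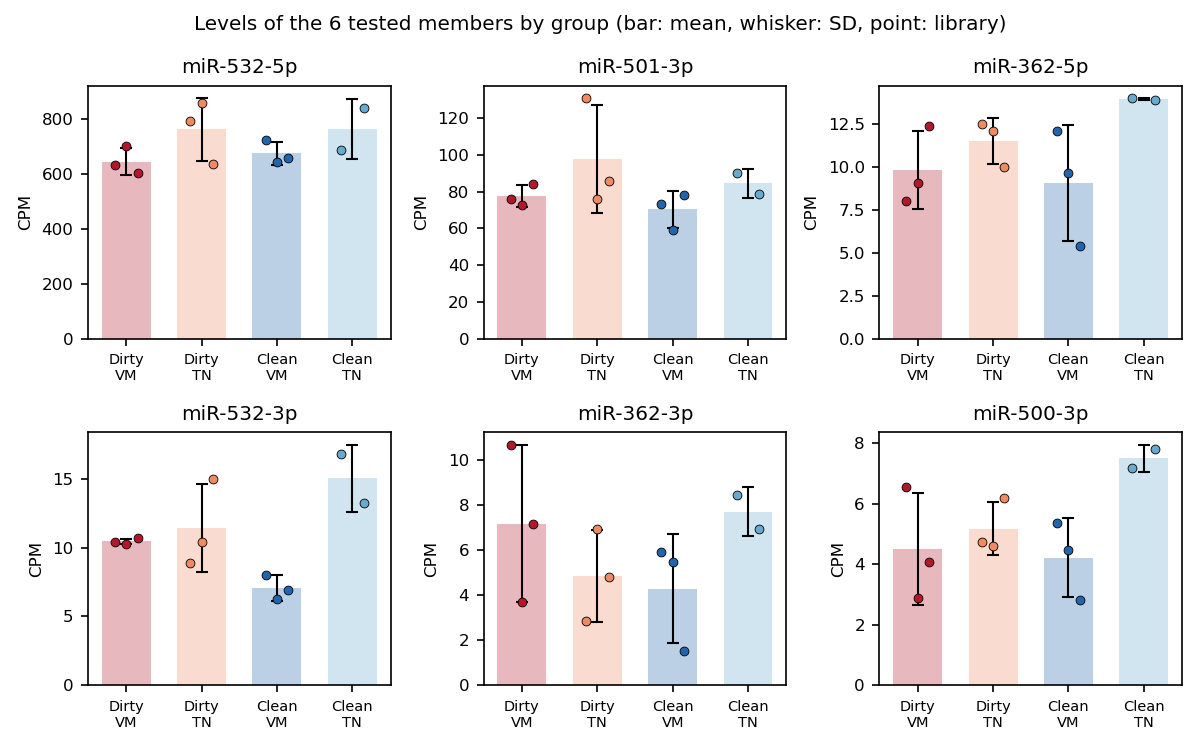
Level in CPM, on a linear axis from 0, of the 6 members that passed the filter on low counts, with bars for group means, whiskers for the SD and points for single libraries. For miR-532-3p the Clean_VM libraries lie at 6.24 to 8.05 CPM, below the Clean_TN libraries at 13.3 and 16.8 CPM, while the Dirty_VM libraries lie within the Dirty_TN range.

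The comparison of dirty with clean mice asked whether these miRNAs differed by environment within a subset. By edgeR none of the 6 members was called in VM or in TN cells, and none had an unadjusted p under 0.05, against 0% of all rows called in either subset. Over all rows, 81 in VM and 38 in TN cells had an unadjusted p under 0.05. DESeq2 called 19 rows in VM and 3 in TN cells, and 0 of the members in either. In VM cells it gave no adjusted p for miR-500-3p and miR-362-3p. miR-532-3p came nearest in VM cells, where each Dirty_VM library (10.3 to 10.7 CPM) was above each Clean_VM library (6.24 to 8.05 CPM), as in 12.1% of all rows, with 8.99% wholly below. Its log2 change there was 0.58 ± 0.272 (edgeR adjusted p = 0.347), and in TN cells it was -0.39 ± 0.293 (adjusted p = 0.722).

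miR-532-5p had a log2 change between dirty and clean mice of -0.07 ± 0.178 in VM cells, with a 95% interval of -0.45 to 0.32. In TN cells it had -0.003 ± 0.198, with an interval of -0.43 to 0.43 (edgeR adjusted p = 0.902 in VM and 0.996 in TN cells). The interval covers changes in either direction up to these bounds. miR-501-3p had 0.14 ± 0.223 in VM and 0.21 ± 0.25 in TN cells. The other members lay between 0.12 and 0.79 in VM cells and between -0.71 and -0.28 in TN cells, with adjusted p-values of 0.347 to 0.924 and 0.722 to 0.837. For 3 of 6 members, miR-500-3p and both arms of mir-362, the Dirty_TN libraries lay wholly below those of Clean_TN, as did 8.99% of all rows, while 14.3% lay wholly above.

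As an interaction, the test of whether the VM minus TN change differs between dirty and clean mice called 0 of 6 members and 0% of all rows by edgeR. At an unadjusted p under 0.05 it held 1 member, miR-532-3p, and 93 rows, and DESeq2 called 41 rows and 0 members. The members' interactions lay between -0.06 and 1.49. Without Dirty_TN replicate 3, the interaction of miR-532-3p was 1.42 with an edgeR adjusted p of 0.0276, the lowest of its alternatives, which reached 0.502. In that fit the interaction called 73 rows in all, against 0 with every library, so the call was not particular to miR-532-3p. Its log2 change in dirty mice was 0.20 without that library.

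**Figure D3:**
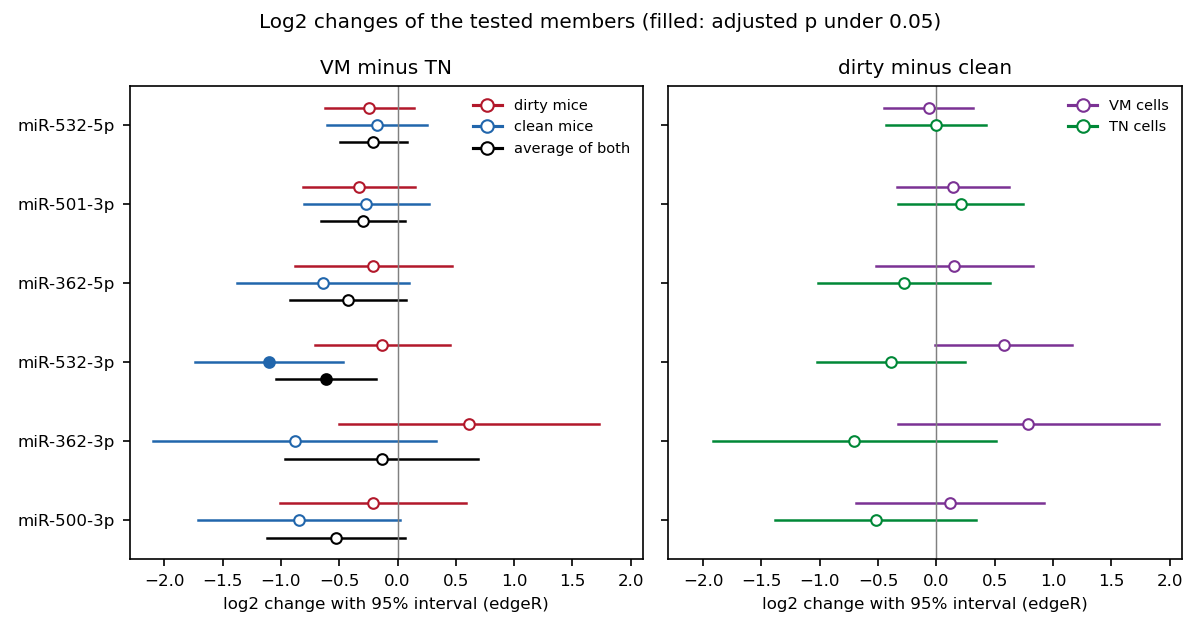
Log2 changes of the 6 tested members by edgeR with 95% intervals, VM minus TN on the left and dirty minus clean on the right, where filled points passed an adjusted p of 0.05. Only miR-532-3p is filled, at -1.10 in clean mice and -0.61 on average, and the intervals of the other members cross 0 in each comparison.

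The arms of a hairpin come from 1 precursor, and their ratio within a library needs no scaling between libraries. It rests on the same counts as the levels above and is no separate evidence for them. For mir-532 the 3p arm was 1.62%, 1.45% and 1.75% of both arms in Dirty_VM, and 1.10%, 1.19% and 2.31% in Dirty_TN. In clean mice it was 1.10%, 0.958% and 1.04% in Clean_VM, and 2.38% and 1.55% in Clean_TN. The Clean_VM shares lay below the Clean_TN shares, while Dirty_TN held libraries on both sides of Dirty_VM.

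Counting error alone did not span all of these differences. Clean_VM replicate 2 had a Wilson 95% interval of 0.751% to 1.22% and Clean_TN replicate 2 one of 2.06% to 2.74%, while Clean_TN replicate 3, with 44 counts of the 3p arm, had 1.16% to 2.08%. Within Dirty_TN, replicate 1 had 0.873% to 1.39% and replicate 3 had 2.0% to 2.66%, so libraries of 1 group differed by more than counting error as well. On the log2 scale the 5p to 3p ratio averaged 5.94 ± 0.142 in Dirty_VM and 6.09 ± 0.595 in Dirty_TN (SD, n = 3 each), and 6.59 ± 0.101 in Clean_VM (n = 3) and 5.67 ± 0.443 in Clean_TN (n = 2). With environment as stratum the VM minus TN difference was 0.38 (two-sided exact permutation test over 200 arrangements, p = 0.215, adjusted p = 0.81 over 4 arm tests, smallest p possible 0.005). By environment it was -0.14 in dirty and 0.91 in clean mice, and the difference between these was not tested for the ratio.

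For mir-362 the 3p arm was 57.1%, 29.0% and 36.6% of both arms in Dirty_VM and 18.5%, 36.4% and 32.4% in Dirty_TN. In clean mice it was 32.8%, 36.1% and 21.7% in Clean_VM and 37.7% and 33.3% in Clean_TN. Dirty_VM replicate 1, with 36 counts of the 3p and 27 of the 5p arm, was the one library in which the 3p arm prevailed, with a Wilson 95% interval of 44.9% to 68.6%. By the same two-sided permutation test the log2 ratio of mir-362 differed by -0.20 between VM and TN cells (exact p = 0.66, adjusted p = 0.81). Between dirty and clean mice the log2 ratio differed by -0.12 for mir-532 (p = 0.685) and by -0.10 for mir-362 (p = 0.81) by exact permutation, both with an adjusted p of 0.81. For mir-532 that average joined opposite differences, -0.64 in VM cells, where Dirty_VM lay wholly below Clean_VM, and 0.41 in TN cells, where the libraries overlapped. For mir-362 it joined -0.68 in VM and 0.47 in TN cells, with overlap in both. These differences by subset were not tested.

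**Figure D4:**
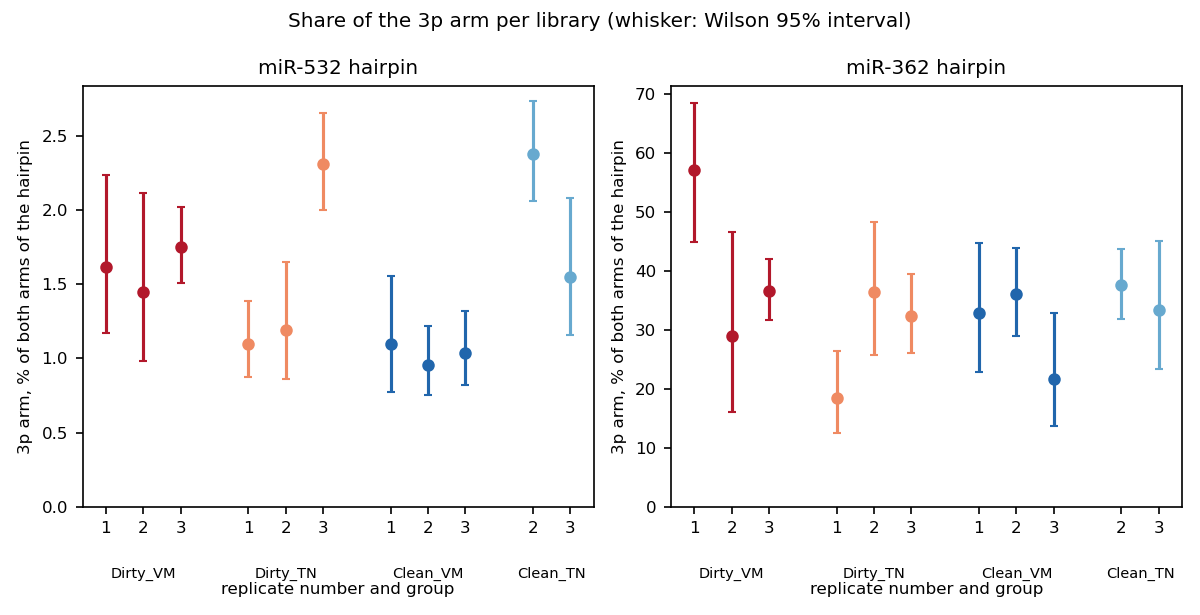
Share of the 3p arm among both arms of the mir-532 (left) and mir-362 (right) hairpins in each library, in percent with Wilson 95% intervals, by group and replicate number. For mir-532 the Clean_VM shares lie at 0.958% to 1.10%, below the Clean_TN shares of 1.55% and 2.38%, and Dirty_TN spreads between 1.10% and 2.31%.

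The miRNAs most like miR-532-5p over the 11 libraries were looked for among 259 rows with a mean of at least 10 CPM, other locus products left out. By Pearson's r of log2 CPM, as a description, the nearest were let-7e-5p (0.827), miR-192-5p (0.827), miR-1839-5p (0.743), miR-378c (0.74) and miR-101a-3p (0.735). Set on the same scale, the members of its own locus lay below these rows, which were picked as the highest of all 259. The members had 0.46 for miR-362-5p, 0.26 for miR-501-3p, 0.20 for miR-500-3p, 0.09 for miR-532-3p and -0.02 for miR-362-3p. Placed among the 259 rows they would take ranks 52, 88, 92, 111 and 135, in that order. The libraries share their depth and scaling in these values, miR-532-5p itself varied only 1.42-fold between its extremes, and the low counts of most members limit how alike they can appear.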

How the data were processed

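The deposited values are expected counts, that is estimated counts with fractions, per miRNA in 11 libraries, per the file headers and values (88.7% of values were whole). The submitters' processing notes name mm10, and the authors' aligner, counter and annotation are not given in the sources used here. Per the labels' protocols, RNA of sorted cells was made into libraries with the NEBNext Small RNA kit and size selected.

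Of 2128 rows, 120 exact repeats of a name and its values (0.889% of counts) were dropped. Counts were rounded, filtered with filterByExpr (545 rows kept) and fitted over all libraries with edgeR 4.0.16 (TMM, robust quasi-likelihood, 1 mean per group, no block), with Benjamini-Hochberg adjustment over the 545 rows at 0.05. The SE is the absolute log2 change over the square root of F. Likeness used a prior count of 2. Arm ratios were compared by exact permutation, intervals are Wilson 95%, and alternatives included DESeq2 1.42.0.

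Named were all members, the other products of their hairpins, the 5 rows most like miR-532-5p, and seed partners with a tested row. Outside this rule, miR-329-3p, miR-7061-3p and the marker miRNAs given with log2 changes were named after their values were seen. Members, lists and tests were chosen with earlier results of these data known.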

Additional observations from a re-analysis of the deposited data

How the results depend on the processing

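Of 36 log2 changes of the members, 26 kept their sign under every alternative run, and none that passed changed sign. The number of members called moved only through miR-532-3p. Averaged over both environments that number was 0 in place of 1 with no filter on low counts and under either replicate block, and 0 to 1 when a library was left out. In clean mice it was 0 under either block and 0 to 1 when a library was left out, and for the interaction 0 to 1. Leaving out 1 Clean_TN library leaves a lone one, assumed to vary like the other groups, and the cause of each change was not tested.

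With the replicate number as a block, miR-532-3p had -0.60 on average (edgeR adjusted p = 0.092) and -1.08 in clean mice (0.0668), and with a block per environment and number -0.65 (0.0739) and -1.19 (0.0601). Same-numbered libraries of an environment correlated in their deviations between -0.463 and 0.416. Pairs of like depth had r between 0.238 and 0.416, and pairs of unlike depth had -0.263 and -0.463. Same-numbered libraries of different environments split by depth in the same way. Their r was 0.113 to 0.292 in pairs of like depth and -0.554 to -0.113 in pairs of unlike depth. These values do not show whether the numbers pair the libraries, which was not tested. Calls over all rows in clean mice fell to 56 and 66 under the blocks, against 95.

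Scaling by library totals alone moved the median of all rows in clean mice to -0.127, against 0.082 under TMM, and for the interaction to 0.236, against -0.045. miR-532-5p then had 0.043 for dirty minus clean in VM cells and an interaction of 0.23, and miR-501-3p an interaction of 0.26. With a depth term miR-532-5p had 0.033 for dirty minus clean in TN cells and miR-501-3p an interaction of 0.03. The interaction of miR-501-3p was 0.065 and 0.018 under the blocks.

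When libraries were left out in turn, sign changes occurred for VM minus TN in dirty mice in miR-532-3p (-0.34 to 0.20) and miR-500-3p (-0.62 to 0.024). For dirty minus clean in VM cells they occurred in miR-532-5p (-0.254 to 0.009), miR-501-3p (-0.009 to 0.323), miR-500-3p (-0.34 to 0.26) and miR-362-5p (-0.09 to 0.29), and in TN cells in miR-532-5p (-0.222 to 0.055) and miR-501-3p (-0.18 to 0.25). Interactions ranged over -0.18 to 0.20 for miR-532-5p and -0.23 to 0.28 for miR-501-3p. The log2 arm ratio ranged over -0.389 to 0.038 for VM minus TN in mir-362, and for dirty minus clean over -0.30 to 0.14 in mir-362 and -0.272 to 0.056 in mir-532. Low counts limit every member below miR-501-3p.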
